A study of Arabidopsis thaliana with 30 samples.

Results

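The auxin response of a plant cell passes through a pair of gene families, the AUXIN RESPONSE FACTORs (ARFs) and the Aux/IAA repressors, and the levels of their transcripts were followed here through the tissues of the Arabidopsis stem. The members were taken by gene identifier and comprised 15 ARF genes, 5 of the activator class (ARF5, ARF6, ARF7, ARF8 and ARF19) and 10 of the repressor class, and 29 Aux/IAA genes, together 44 of the 37051 genes counted. RNA came from nuclei of the second bottom-most internode of Col-0 inflorescence stems, sorted by fluorescence (FANS). Each line was homozygous for 1 transgene in which a tissue-specific promoter drives histone H4 fused to GFP. All libraries, GFP-negative ones included, came from such transgenic lines, and no untransformed control was used here. GFP-positive nuclei were collected from fibers (NST3pro:H4-GFP), differentiating vessel elements (VND7pro:H4-GFP), the proximal cambium with differentiating xylem (PXYpro:H4-GFP), the distal cambium with differentiating phloem (SMXL5pro:H4-GFP), differentiated phloem (APLpro:H4-GFP), the starch sheath (SCRpro:H4-GFP) and the epidermis (LTP1pro:H4-GFP). GFP-negative nuclei of the NST3pro, SMXL5pro and APLpro lines represented the remaining tissues of the same internodes. A tissue is therefore defined by where 1 promoter is active, and nuclei were isolated from internodes collected by weight, so that stems were pooled in a library.

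ARFs are transcription factors that bind auxin response elements in DNA. Aux/IAA proteins bind ARFs and recruit TOPLESS-type corepressors, and auxin joins an Aux/IAA to a TIR1/AFB F-box receptor through a short degron, after which the repressor is degraded and the ARF is released. Many Aux/IAA genes are themselves induced by auxin, which closes a negative feedback loop. In stems, auxin transport and signalling are known for their part in vascular patterning, cambium activity and xylem formation.

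The degron is shown first because it separates the Aux/IAA family into repressors that the receptor can bind through it and those that lack it. By the gene models of RefSeq on TAIR10.1, 23 of the 29 Aux/IAA genes encoded its core of glycine, tryptophan and a pair of prolines, and 6 did not (IAA20, IAA30, IAA31, IAA32, IAA33 and IAA34). The residue after the core was valine in 17, isoleucine in 5 and leucine in 1. The codons below are from members whose transcripts stood highest in the starch sheath (IAA2, IAA7, IAA18), in vessel elements (IAA1, IAA14, IAA19), in the epidermis (IAA6) and in PXYpro nuclei (IAA27), with the 5 codons of the core and the next residue in capitals, read 5′ to 3′ along the gene.
IAA2: atcgttGGTTGGCCACCAGTGagatcttcc
IAA7: gtggtgGGATGGCCACCTGTGaggaactac
IAA18: gtggtgGGATGGCCTCCGGTTcgatccttc
IAA1: atcgttGGATGGCCTCCAGTGagatctaac
IAA14: gtggtgGGTTGGCCACCGGTGaggaactac
IAA19: gtggtgGGGTGGCCACCGGTTtgttcttac
IAA6: gcggtgGGATGGCCACCTGTGtgttcttac
IAA27: gtggtgGGATGGCCACCAATAagatcattc
They lie at chr3:8181384-8181413 (minus strand), chr3:8195571-8195600 (plus strand), chr1:19306234-19306263 (plus strand), chr4:8361439-8361468 (plus strand), chr4:8349475-8349504 (minus strand), chr3:5264310-5264339 (plus strand), chr1:19673320-19673349 (minus strand) and chr4:14324651-14324680 (minus strand) of TAIR10.1, in coding exons. The capitals of IAA27 end in an isoleucine codon, those of the others in a valine codon. All were picked from the 23 genes with the core, so the shared core was fixed by that choice. Among those without it, IAA30 had its highest mean in vessel elements, where its libraries overlapped those of PXYpro nuclei. IAA20 had its highest mean in the epidermis, where its libraries overlapped those of vessel elements, and did not pass the test among tissues described below.

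Promoters were searched, over the 250 bases before the annotated gene start and on both strands, for the letters of a pair of auxin response elements, TGTCTC and TGTCGG. Either was found in 13 of 29 Aux/IAA promoters (44.8%) and in 3 of 15 ARF promoters (20%), against 14.7% of 27443 protein-coding promoters of the same length. TGTCTC was found in 9 Aux/IAA promoters and 1 ARF promoter (10.9% of all) and TGTCGG in 6 Aux/IAA promoters and 2 ARF promoters (4.16% of all). The promoters of the 4 members with the largest absolute log2 fold change in any single tissue contrast below, pairwise ones included, are shown with the elements in capitals, where GAGACA and CCGACA are the same elements read on the opposite strand.
IAA19: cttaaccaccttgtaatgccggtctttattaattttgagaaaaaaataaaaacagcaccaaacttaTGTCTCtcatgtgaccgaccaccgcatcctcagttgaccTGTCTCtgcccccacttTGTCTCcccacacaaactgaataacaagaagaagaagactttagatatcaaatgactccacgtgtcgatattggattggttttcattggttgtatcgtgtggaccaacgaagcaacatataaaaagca
IAA6: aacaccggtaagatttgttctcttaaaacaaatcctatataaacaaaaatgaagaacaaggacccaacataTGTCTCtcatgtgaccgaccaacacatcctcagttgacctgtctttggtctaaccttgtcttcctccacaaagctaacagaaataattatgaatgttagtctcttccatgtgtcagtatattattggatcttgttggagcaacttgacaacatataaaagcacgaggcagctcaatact
IAA1: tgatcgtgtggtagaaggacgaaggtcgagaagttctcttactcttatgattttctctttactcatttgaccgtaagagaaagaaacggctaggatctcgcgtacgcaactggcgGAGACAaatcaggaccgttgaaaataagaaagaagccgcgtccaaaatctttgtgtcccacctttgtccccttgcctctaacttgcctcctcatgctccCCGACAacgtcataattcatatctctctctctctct
ARF19: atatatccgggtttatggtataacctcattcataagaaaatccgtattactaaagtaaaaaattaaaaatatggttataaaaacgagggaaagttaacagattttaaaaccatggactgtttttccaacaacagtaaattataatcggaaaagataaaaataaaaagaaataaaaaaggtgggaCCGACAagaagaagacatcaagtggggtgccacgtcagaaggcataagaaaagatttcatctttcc
They span chr3:5263751-5264000 (plus strand), chr1:19673653-19673902 (minus strand), chr4:8360746-8360995 (plus strand) and chr1:6633134-6633383 (minus strand) of TAIR10.1. In IAA19, TGTCTC began at positions -184, -145 and -128 from the gene start, and in IAA6 at -179. The promoters of IAA6 and IAA19 shared a run of 23 identical bases around this element, and 54 bases of an ungapped stretch of 60 were identical. In IAA1 the elements lay at -135 and -36 and in ARF19 at -66. A match describes letters and is no evidence of binding. Auxin was not applied in these samples, and the tissue calls below fell on 9 of 13 Aux/IAA genes with an element and on 9 of 16 without one, against 26.1% of all genes tested.

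The 30 libraries, 3 in each of 10 groups, held 725545 to 18335693 reads on annotated genes, of which the 44 members took 0.141% to 0.439%. The study had left out 4 of the 21 GFP-positive libraries as outliers (NST3pro replicate 2, VND7pro replicate 6, APLpro replicate 15 and LTP1pro replicate 19), partly because genes of known pattern departed from it, and the 17 that remained, 2 or 3 a tissue with 1918733 to 18299284 reads, entered the tissue comparisons. Summed over the promoter and marker genes of each tissue, 19 genes in all, levels were highest in the tissue they mark in 7 of 7 tissues, and none of these genes was at 0 in a library of its own tissue. The exception among single genes was LTP1 itself, which had 22.6 and 29.2 CPM in LTP1pro, against 62.1 and 73.4 CPM in VND7pro and 73.9 and 42.5 in APLpro nuclei. Reads on pseudogenes, which should hold few, made up 4.78 to 6.52% of reads in SMXL5pro libraries, 3.49 to 4.74% in APLpro and 4.41 to 4.56% in LTP1pro, against 1.01 to 2.24% in the other kept libraries. These are also the tissues with the lowest summed levels of both families, and the part of this background in the results was not tested beyond the settings given below. In sorted nuclei, fewer cells of a type and less RNA per cell cannot be told apart. Whether libraries of a group came from separate plants or harvests is not stated in the labels, so that p-values measure the spread between these libraries.

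Levels are given as CPM, counts scaled to the library total after TMM normalization. Orders and overlaps of tissue libraries refer to the 17 kept ones unless all 21 are named. Of the 44 members, 28 differed among the 7 tissues (edgeR quasi-likelihood F test, Benjamini-Hochberg adjusted p at 0.01), as did 26.1% of all 32659 genes tested. They were 10 of 15 ARFs, of which 3 of 5 activators and 7 of 10 repressors, and 18 of 29 Aux/IAA genes, of which 17 of 23 had a degron and 1 of 6 lacked it. The 6 genes without a degron were read at low levels, with means over tissues of 2.76 to 14.6 CPM, so the split is not one of degron alone. All 44 members passed the filter on low counts. With all 21 libraries the counts were 7 ARF and 13 Aux/IAA genes. Summed over the 29 Aux/IAA genes, the level was highest in vessel elements (3030 ± 61.4 CPM, SD, n = 2) and the starch sheath (2900 ± 563, n = 3), followed by PXYpro nuclei (2201 ± 105, n = 3) and fibers (1797 ± 15.4, n = 2), and it was lower in LTP1pro (1311 ± 16.7, n = 2), APLpro (1265 ± 275, n = 2) and SMXL5pro nuclei (795 ± 129, n = 3). The libraries of vessel elements and the starch sheath overlapped in this sum, as did those of LTP1pro and APLpro nuclei. The summed ARF level was 1668 ± 279.8 CPM in SCRpro, 1514 ± 65.4 in PXYpro, 1448 ± 99.2 in NST3pro, 1325 ± 62.1 in VND7pro, 903 ± 2.31 in LTP1pro, 809 ± 80.6 in SMXL5pro and 719 ± 77.3 CPM in APLpro nuclei, so both families were lowest in the phloem-side tissues and the epidermis. Levels per kilobase of gene body, introns included, allow a rough comparison between genes, as the share of intron in each gene was not allowed for. By this measure the most abundant ARF transcripts averaged over tissues were those of ARF19 (45.8 CPM per kb), ARF4 (37.8), ARF2 (33.1), ARF1 (25.7) and ARF3 (14.4). IAA2 led the other family by far with 251 CPM per kb, before IAA27 (81.1), IAA9 (73.8), IAA16 (60.7) and IAA14 (50.9).

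**Figure D1:**
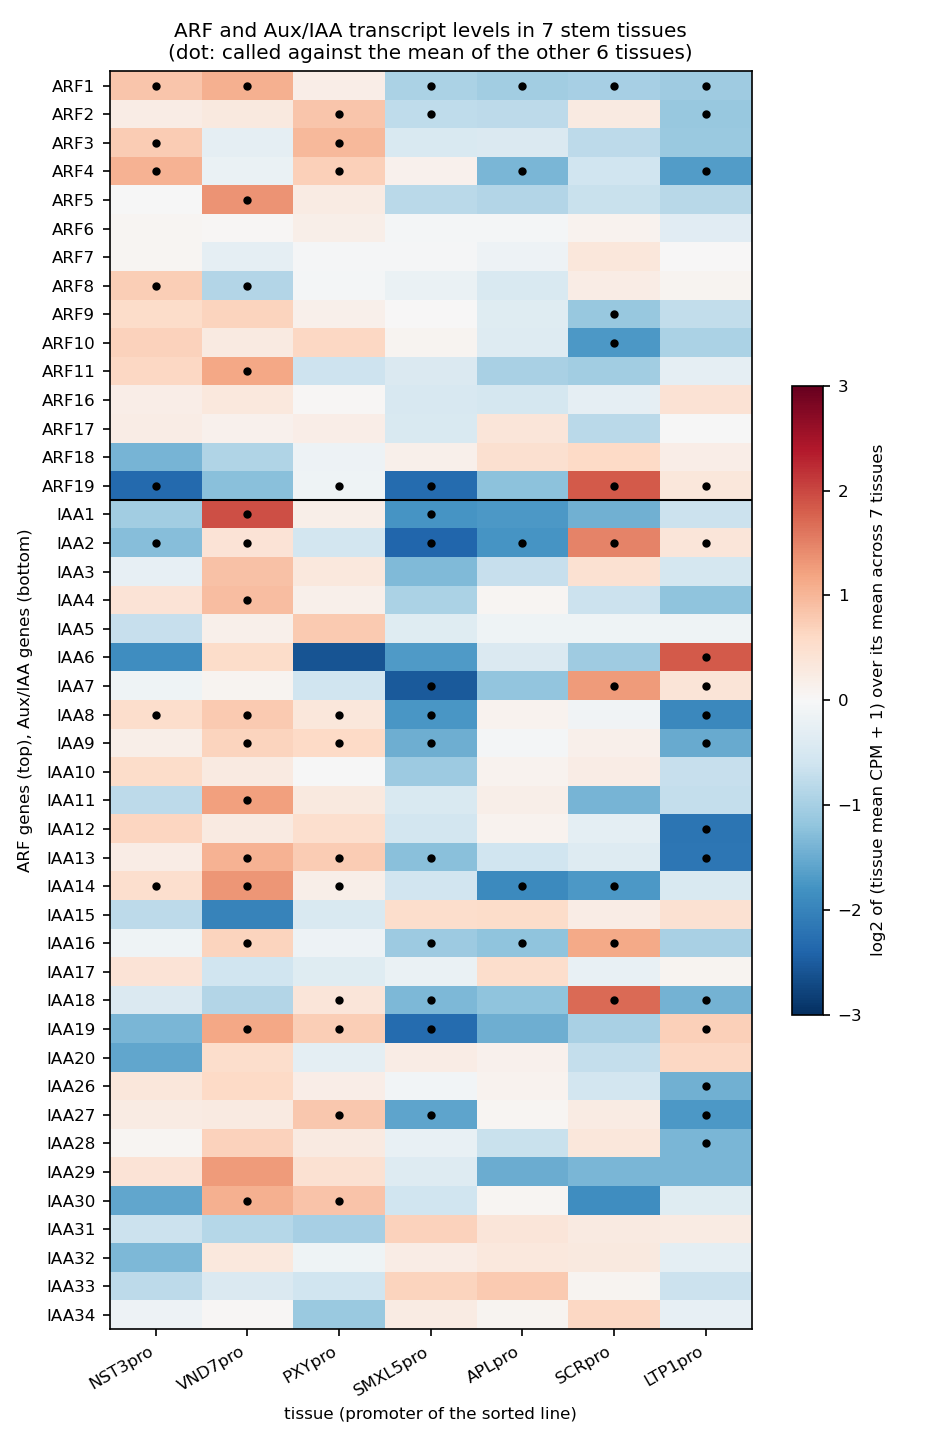
Mean level of each of the 44 genes in the 7 tissues (log2 of tissue mean CPM plus 1 over its mean across tissues), with ARF genes above, Aux/IAA genes below and a dot where a gene is called against the mean of the other 6 tissues. Among Aux/IAA genes, 14 of 29 were highest in VND7pro nuclei and 5 in SCRpro nuclei, while ARF19 was highest in SCRpro nuclei.

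Of the 5 activator ARFs, ARF19 (AT1G19220) stood out in the starch sheath, ARF5 (AT1G19850) in vessel elements and ARF8 (AT5G37020) in fibers, whereas ARF6 (AT1G30330) and ARF7 (AT5G20730) did not pass the test among tissues. ARF19 acts with ARF7 in root branching and in growth responses of shoots and roots. It was read at 1152, 644 and 887 CPM in SCRpro and 311 and 321 in LTP1pro nuclei. The other tissues gave 235, 239 and 213 CPM in PXYpro, 126 and 85.5 in APLpro, 114 and 95.6 in VND7pro, 51.9, 51.5 and 44.4 in SMXL5pro and 53.2 and 43.9 in NST3pro nuclei. Among the 17 libraries, those of SCRpro were above all others, and both LTP1pro libraries were above the remaining 12. In the scaling over 21 libraries, LTP1pro replicate 19, left out by the study, had 836 CPM, above SCRpro replicate 17 (654). ARF19 was higher in SCRpro nuclei than in the mean of the other 6 tissues (log2 fold change 3.00 ± 0.14, adjusted p = 2.11e-12, with the standard error, SE, after the ± sign here and below) and in LTP1pro nuclei (1.25 ± 0.18, adjusted p = 3.88e-05). It was lower in fibers (-1.90, adjusted p = 3.39e-06) and in SMXL5pro nuclei (-1.88, adjusted p = 2.73e-07). These 4 calls remained under every alternative setting and whichever library was left out. ARF19 was also higher in PXYpro nuclei (0.71 ± 0.16), a call that was lost with all 21 libraries (0.68, adjusted p = 0.145), with RLE normalization, on background subtraction and without any 1 PXYpro library (adjusted p = 0.0106 to 0.0287). ARF5, also called MONOPTEROS, is required for embryonic and vascular patterning. Its level was 128 and 93.8 CPM in VND7pro nuclei, against 52.4, 50.8 and 50.6 CPM in PXYpro, 30.3 and 55.4 in NST3pro, 22.7, 44.6 and 13.7 in SCRpro, 29.3, 23.3 and 20.1 in SMXL5pro, 19.4 and 28.1 in LTP1pro and 22.7 and 23.6 in APLpro nuclei. Both VND7pro libraries exceeded the others (log2 fold change 1.87 ± 0.27, adjusted p = 2.32e-05), although the adjusted p was 0.0191 once a pseudogene-based background had been subtracted, at a log2 fold change of 2.28. In the scaling over 21 libraries, VND7pro replicate 6, left out by the study, had 48.8 CPM of ARF5, below all PXYpro libraries (55.3, 52.9 and 51.6). ARF8, which with ARF6 promotes flower maturation and is cleaved through miR167, had 97.9 and 87.6 CPM in NST3pro, against 63.7, 48.8 and 81.4 CPM in SCRpro, 64.7 and 51.0 in LTP1pro, 45.7, 62.2 and 48.7 in PXYpro, 46.2, 49.5 and 46.1 in SMXL5pro, 47.5 and 31.6 in APLpro and 27.6 and 31.1 in VND7pro nuclei. It was higher in fibers than in the mean of the others (log2 fold change 0.98 ± 0.21) and lower in vessel elements (-0.96 ± 0.25), and fibers against vessel elements gave 1.66 ± 0.31 (adjusted p = 0.00104). Neither of the contrasts with 6 tissues held with all 21 libraries, and without NST3pro replicate 1 or 3 the adjusted p in fibers was 0.0346 or 0.0183. The contrast of fibers with vessel elements was lost without VND7pro replicate 4 (adjusted p = 0.0261), and that of vessel elements with the other 6 tissues in 12 of 17 fits that left out 1 library. Tissue means of ARF6 lay between 45.8 CPM in LTP1pro and 66.0 CPM in PXYpro nuclei and those of ARF7 between 45.5 CPM in VND7pro and 70.1 CPM in SCRpro nuclei, a ratio of highest to lowest of 1.44 and 1.54, with adjusted p of 0.720 and 0.658.

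Among the repressor ARFs, ARF1 (AT1G59750) was highest in both lignifying xylem tissues, ARF4 (AT5G60450) in fibers and PXYpro nuclei, and ARF2 (AT5G62000) and ARF3 (AT2G33860) in PXYpro nuclei. ARF1 and ARF2 are known from senescence and floral organ abscission. ARF1 was read at 290.2 and 268 CPM in VND7pro and 227 and 243 in NST3pro nuclei. In the other tissues it had 158, 167 and 129.9 CPM in PXYpro, 79.3, 75.5 and 50.8 in SMXL5pro, 76.3, 53.1 and 66.7 in SCRpro, 61.4 and 65.8 in APLpro and 65.1 and 59.5 in LTP1pro nuclei. Among the 17 libraries, those of vessel elements and fibers all stood above the rest, and PXYpro above the remaining tissues. In the scaling over 21 libraries, NST3pro replicate 2 (128 CPM) and VND7pro replicate 6 (115) were below all PXYpro libraries (166, 174 and 132). The log2 fold changes were 1.59 ± 0.17 in vessel elements (adjusted p = 2.71e-07) and 1.30 ± 0.17 in fibers (adjusted p = 7.91e-06), and ARF1 was lower in APLpro (-0.90), LTP1pro (-0.93), SCRpro (-0.85) and SMXL5pro nuclei (-0.77), where none of the 4 calls held with all 21 libraries. ARF2 limits cell division and organ size. It had 319, 274 and 328 CPM in PXYpro nuclei, against 196 and 226 CPM in VND7pro, 211, 179 and 229.8 in SCRpro, 191 and 213 in NST3pro, 117, 111 and 77.1 in SMXL5pro, 102 and 97.8 in APLpro and 83.3 and 73.3 in LTP1pro nuclei. ARF2 was higher in PXYpro nuclei (1.15 ± 0.14) and lower in LTP1pro (-1.15 ± 0.20) and SMXL5pro nuclei (-0.71 ± 0.16). The PXYpro call held in every alternative and without any 1 library. The LTP1pro call was lost with all 21 libraries (-0.80, adjusted p = 0.0804) and without LTP1pro replicate 21 (adjusted p = 0.0213). In SMXL5pro nuclei the log2 fold change was -0.07 after background subtraction (adjusted p = 0.7998), and the call was also lost with RLE normalization, with all 21 libraries (-0.66, adjusted p = 0.128) and without SMXL5pro replicate 12 (adjusted p = 0.0351). ARF3 (ETTIN) and ARF4 act together in abaxial organ identity and, with ARF2, are targets of small RNAs made from TAS3 transcripts. ARF3 had 120.1, 99.3 and 103 CPM in PXYpro and 83.3 and 104 in NST3pro nuclei. Elsewhere it had 48.6 and 41.4 CPM in VND7pro, 43.96 and 36.1 in APLpro, 42.3, 38.8 and 37.9 in SMXL5pro, 16.4, 50.4 and 26.7 in SCRpro and 21.8 and 27.2 in LTP1pro nuclei. All 5 libraries of PXYpro nuclei and fibers were above the 12 others, with log2 fold changes of 1.37 ± 0.20 (adjusted p = 4.98e-05) and 1.14 ± 0.24 (adjusted p = 0.0015).

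ARF4 gave 305 and 399 CPM in NST3pro and 298, 280.2 and 260.1 in PXYpro nuclei. The other tissues gave 184, 227 and 151 CPM in SMXL5pro, 145 and 151 in VND7pro, 127, 73.8 and 137 in SCRpro, 80.2 and 51.1 in APLpro and 45.7 and 59.3 in LTP1pro nuclei. Among the 17 libraries, those of fibers and PXYpro nuclei stood above all others, and SMXL5pro nuclei came next, with SMXL5pro replicate 12 level with VND7pro replicate 5. In the scaling over 21 libraries, NST3pro replicate 2 (183 CPM) was below SMXL5pro replicates 10 and 11 (191 and 235). ARF4 was higher in fibers (log2 fold change 1.55 ± 0.19, adjusted p = 4.79e-06) and in PXYpro nuclei (1.161 ± 0.17, adjusted p = 5.03e-05), and lower in LTP1pro (-1.65 ± 0.26) and APLpro nuclei (-1.27 ± 0.24), where the calls were lost without LTP1pro replicate 20 (adjusted p = 0.0149) and without APLpro replicate 14 (adjusted p = 0.127). It was the only member that was higher in both cambium domains together than in the mean of the other 5 tissues (log2 fold change 0.99 ± 0.15, adjusted p = 8.76e-05). The other repressors were read at lower levels. ARF11 (AT2G46530) had 80.6 and 65.7 CPM in VND7pro nuclei, against 69.9 and 30.6 CPM in NST3pro, 33.2 and 19.5 in LTP1pro, 24.5, 20.6 and 26.0 in SMXL5pro, 28.6, 7.63 and 25.0 in PXYpro, 16.9 and 14.9 in APLpro and 11.3, 21.8 and 12.3 in SCRpro nuclei, and its call in vessel elements (1.66 ± 0.35) was lost without VND7pro replicate 4 or 5 (adjusted p = 0.0654 and 0.011), with NST3pro replicate 1 lying between these libraries. ARF9 (AT4G23980) had 40.96, 19.6 and 17.8 CPM in SCRpro nuclei, against 101 and 85.7 CPM in VND7pro, 82.1 and 91.8 in NST3pro, 80.2, 54.2 and 63.0 in PXYpro, 63.3, 50.3 and 65.4 in SMXL5pro, 41.5 and 48.9 in APLpro and 46.9 and 23.2 in LTP1pro nuclei, and was lower in the starch sheath (-1.24 ± 0.27) although its SCRpro libraries overlapped those of LTP1pro nuclei and the call was lost without SCRpro replicate 17 or 18 (adjusted p = 0.0366 and 0.0419). ARF10 (AT2G28350) is a target of miR160 together with ARF16 (AT4G30080) and ARF17 (AT1G77850). It had 5.67, 2.12 and 8.21 CPM in SCRpro nuclei, against 17.3 and 47.4 CPM in NST3pro, 39.1, 24.3 and 28.9 in PXYpro, 27.2 and 20.9 in VND7pro, 26.1, 20.1 and 17.1 in SMXL5pro, 19.8 and 10.2 in APLpro and 6.87 and 12.6 in LTP1pro nuclei, and was lower in the starch sheath (-1.91 ± 0.46), with SCRpro replicate 18 above LTP1pro replicate 20 and a call that was lost without any 1 of the 3 SCRpro libraries (adjusted p = 0.0102 to 0.0601). ARF16, ARF17 and ARF18 (AT3G61830) did not pass the test among tissues, with adjusted p of 0.0302, 0.292 and 0.0257.

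**Figure D2:**
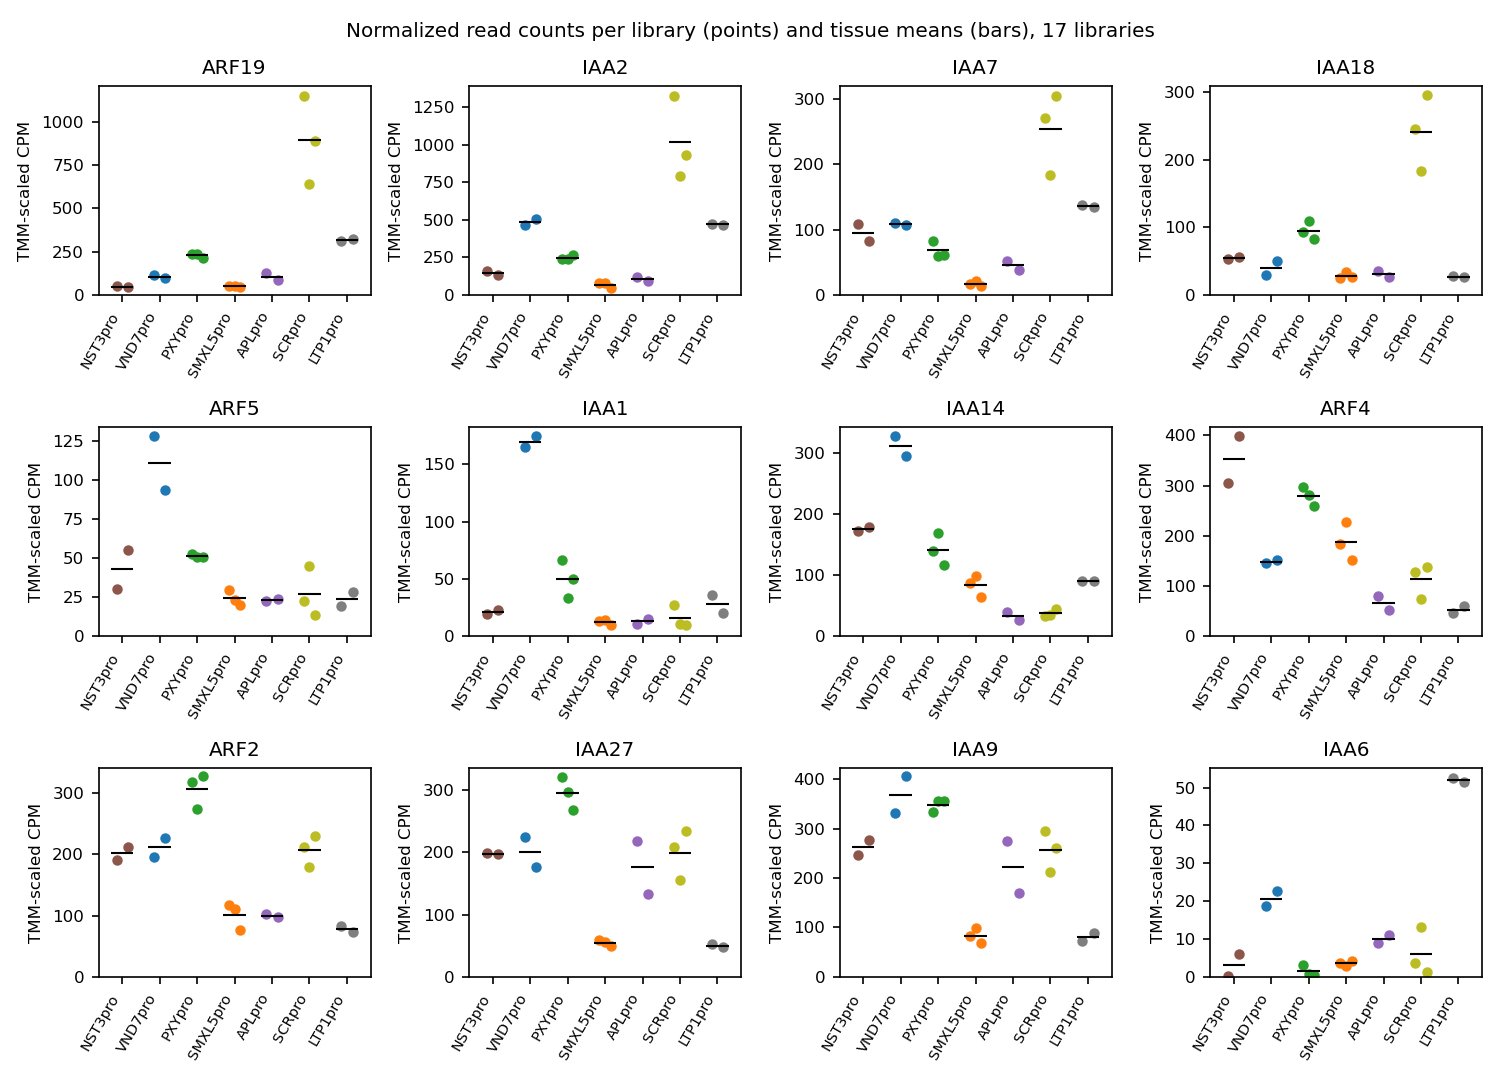
Levels of 12 genes in each of the 17 libraries (points, TMM-scaled CPM) with the tissue mean (bar), by tissue. ARF19, IAA2, IAA7 and IAA18 lie highest in the 3 SCRpro libraries, ARF5, IAA1 and IAA14 in the 2 VND7pro libraries, and IAA6 in the 2 LTP1pro libraries. The 4 libraries that the study left out are not shown.

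The Aux/IAA repressors IAA2 (AT3G23030), IAA7 (AT3G23050), IAA16 (AT3G04730) and IAA18 (AT1G51950), all with a degron, rose in the starch sheath, where ARF19 was also highest. IAA2 is an early auxin-induced gene often used as a reporter of auxin response. It had 1327, 795 and 933 CPM in SCRpro, 468 and 503 in VND7pro and 472 and 468 in LTP1pro nuclei. The other tissues had 242, 239.9 and 263 CPM in PXYpro, 161 and 135 in NST3pro, 119 and 91.4 in APLpro and 79.5, 82.2 and 44.8 in SMXL5pro nuclei. Among the 17 libraries, those of SCRpro were above all others, and those of VND7pro and LTP1pro nuclei, which overlapped each other, were above the rest. In the scaling over 21 libraries, LTP1pro replicate 19 (1345 CPM) was above SCRpro replicates 17 and 18 (808 and 1020). IAA2 was higher in SCRpro (log2 fold change 2.36 ± 0.15, adjusted p = 3.61e-10), VND7pro (1.11) and LTP1pro nuclei (1.06) and lower in SMXL5pro (-2.18), APLpro (-1.46) and NST3pro nuclei (-0.88), and of these the VND7pro, APLpro and NST3pro calls were lost with all 21 libraries and the LTP1pro call without replicate 20 or 21 (adjusted p = 0.0213 and 0.0179). IAA7 (AXR2) and IAA14 (AT4G14550, SOLITARY-ROOT) are close relatives whose stabilized forms block root and shoot auxin responses and lateral root initiation. IAA7 had 272, 183 and 305 CPM in SCRpro and 137 and 135 in LTP1pro nuclei. Elsewhere it had 110.0 and 107 CPM in VND7pro, 108 and 81.9 in NST3pro, 82.9, 60.2 and 60.9 in PXYpro, 52.3 and 38.0 in APLpro and 16.7, 20.9 and 13.6 in SMXL5pro nuclei. Among the 17 libraries, those of SCRpro were highest and those of SMXL5pro lowest, without overlap with any other tissue. In the scaling over 21 libraries, LTP1pro replicate 19 (373 CPM) was above all SCRpro libraries (287, 186 and 334). There APLpro replicate 15 (13.6) was below all SMXL5pro libraries (17.4, 21.7 and 14.2). IAA7 was higher in SCRpro (1.97 ± 0.16) and LTP1pro nuclei (0.92 ± 0.20) and lower in SMXL5pro nuclei (log2 fold change -2.58 ± 0.22, adjusted p = 3.26e-08). Its LTP1pro call was lost without replicate 20 or 21 (adjusted p = 0.0559 and 0.0431). IAA18, known from gain-of-function mutants with altered embryos and roots, had 245, 183 and 295 CPM in SCRpro nuclei, against 92.3, 109 and 82.4 CPM in PXYpro, 53.3 and 55.6 in NST3pro, 29.2 and 49.9 in VND7pro, 35.8 and 26.9 in APLpro, 25.1, 34.1 and 26.2 in SMXL5pro and 27.5 and 26.9 in LTP1pro nuclei. Its SCRpro libraries stood apart from the rest (log2 fold change 2.55 ± 0.16, adjusted p = 2.48e-10). IAA18 was also higher in PXYpro (0.98 ± 0.17) and lower in LTP1pro (-1.12 ± 0.25) and SMXL5pro nuclei (-1.05 ± 0.20), and these 3 calls were lost with all 21 libraries (adjusted p = 0.0146, 0.183 and 0.0256). IAA16 had 409.6, 269.6 and 418 CPM in SCRpro nuclei, against 234 and 295 CPM in VND7pro, 164 and 139 in NST3pro, 157, 172 and 117 in PXYpro, 90.2 and 77.9 in LTP1pro, 90.4, 83.1 and 59.8 in SMXL5pro and 79.1 and 65.0 in APLpro nuclei. It was higher in SCRpro (1.62 ± 0.16) and VND7pro nuclei (1.08 ± 0.19) and lower in APLpro (-1.11 ± 0.22) and SMXL5pro nuclei (-0.98 ± 0.19), with SCRpro replicate 17 between both VND7pro libraries. The VND7pro, APLpro and SMXL5pro calls of IAA16 did not hold with all 21 libraries.

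In vessel elements 11 of the 29 Aux/IAA genes were higher than in the mean of the other 6 tissues and 0 were lower, against 10.3% of all genes higher and 2.05% lower. Of these, 3 were called with all 21 libraries, IAA1 (AT4G14560), IAA14 and IAA19 (AT3G15540), fewer than the 4 higher Aux/IAA genes of the starch sheath in that setting. IAA1, a close relative of IAA2 that is rapidly induced by auxin, was read at 166 and 174 CPM in VND7pro nuclei, against 66.1, 33.0 and 49.7 CPM in PXYpro, 36.0 and 19.8 in LTP1pro, 18.9 and 22.7 in NST3pro, 27.1, 10.08 and 9.58 in SCRpro, 10.0 and 15.2 in APLpro and 13.3, 14.01 and 9.42 in SMXL5pro nuclei. Both VND7pro libraries were far above the rest (log2 fold change 3.08 ± 0.27, adjusted p = 1.82e-08), and the call held in every alternative and without any 1 library. In the scaling over 21 libraries, VND7pro replicate 6 had 60.6 CPM of IAA1, below LTP1pro replicate 19 (81.8) and PXYpro replicate 7 (69.7). IAA1 and IAA14 are neighbours on chromosome 4. IAA14 had 327 and 295 CPM in VND7pro and 172 and 179 in NST3pro nuclei. The other tissues had 139, 169 and 116 CPM in PXYpro, 89.8 and 89.6 in LTP1pro, 86.3, 98.6 and 64.0 in SMXL5pro, 33.4, 33.4 and 43.8 in SCRpro and 38.7 and 26.2 in APLpro nuclei. It was higher in VND7pro (log2 fold change 2.00 ± 0.17, adjusted p = 1.57e-08) and NST3pro nuclei (1.03) and lower in APLpro (-1.80, adjusted p = 4.99e-05) and SCRpro nuclei (-1.58, adjusted p = 5.56e-06), so that its order of tissues was not that of its relative IAA7. It was also higher in PXYpro nuclei (0.67 ± 0.16), a call that held in 8 of 17 fits that left out 1 library and was lost with all 21 libraries (adjusted p = 0.111), as was that in fibers (adjusted p = 0.0368). IAA19 (MSG2), a repressor in tropic growth of the hypocotyl, had 71.2 and 77.6 CPM in VND7pro, 61.3, 63.5 and 43.2 in PXYpro and 57.8 and 52.4 in LTP1pro nuclei. It had 23.9, 6.90 and 18.1 CPM in SCRpro, 8.71 and 15.5 in NST3pro, 13.4 and 9.10 in APLpro and 7.47, 7.09 and 3.21 in SMXL5pro nuclei. Libraries of the first 3 tissues were all above those of the other 4. IAA19 was higher in VND7pro (2.01 ± 0.31), PXYpro (1.53 ± 0.27) and LTP1pro nuclei (1.4997 ± 0.32) and lower in SMXL5pro nuclei (-2.27 ± 0.37), and on background subtraction the VND7pro and PXYpro contrasts missed the threshold at log2 fold changes of 2.18 and 1.98 (adjusted p = 0.0122 and 0.0130). The LTP1pro call was lost without replicate 20 or 21 (adjusted p = 0.0588 and 0.032). IAA6 (AT1G52830, SHY1), whose promoter shares a run with that of IAA19, had 52.6 and 51.5 CPM in LTP1pro and 18.7 and 22.6 in VND7pro nuclei. It had 8.99 and 11.1 CPM in APLpro, 3.78, 13.3 and 1.37 in SCRpro, 3.73, 2.87 and 4.24 in SMXL5pro, 0.264 and 5.97 in NST3pro and 3.03, 0.825 and 0.525 in PXYpro nuclei. The LTP1pro libraries were highest and those of VND7pro nuclei second, without overlap. IAA6 was higher in the epidermis (log2 fold change 3.297 ± 0.60, adjusted p = 0.000606), a call that was lost without LTP1pro replicate 20 or 21 (adjusted p = 0.0202 and 0.0175).

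IAA8 (AT2G22670) and IAA9 (AT5G65670), which form a pair of longer Aux/IAA proteins, were high in the xylem tissues and lowest in SMXL5pro and LTP1pro nuclei. IAA8 had 192 and 231 CPM in VND7pro and 174 and 181 in NST3pro nuclei. In the other tissues it had 164, 162 and 137 CPM in PXYpro, 163 and 97.7 in APLpro, 138, 118 and 82.1 in SCRpro, 40.9, 35.6 and 30.02 in SMXL5pro and 20.6 and 41.5 in LTP1pro nuclei. It was higher in VND7pro (1.27 ± 0.21) and NST3pro nuclei (0.98 ± 0.22) and lower in LTP1pro (-1.94 ± 0.29) and SMXL5pro nuclei (-1.73 ± 0.23). It was higher in PXYpro nuclei too (0.75 ± 0.19), a call that held in 4 of 17 fits that left out 1 library. With all 21 libraries none of these 5 calls of IAA8 held. IAA9 had 332 and 406 CPM in VND7pro and 334, 355 and 357 in PXYpro nuclei. It had 247 and 277 CPM in NST3pro, 296, 211 and 261 in SCRpro, 276 and 169.9 in APLpro, 81.8, 98.1 and 68.1 in SMXL5pro and 72.0 and 88.2 in LTP1pro nuclei in the remaining tissues. The 5 libraries of SMXL5pro and LTP1pro nuclei were all below every other library. IAA9 was higher in VND7pro (1.03 ± 0.18) and PXYpro nuclei (0.94 ± 0.15) and lower in LTP1pro (-1.54 ± 0.22) and SMXL5pro nuclei (-1.49 ± 0.18), and these calls too were lost with all 21 libraries. IAA27 (AT4G29080) had the same low tissues but its maximum in PXYpro nuclei. It had 321, 296 and 267 CPM in PXYpro nuclei, against 225 and 176 CPM in VND7pro, 208, 155 and 235 in SCRpro, 198 and 197 in NST3pro, 218 and 133 in APLpro, 58.7, 56.7 and 49.7 in SMXL5pro and 53.0 and 47.2 in LTP1pro nuclei. It was higher in PXYpro (log2 fold change 1.24 ± 0.15, adjusted p = 4.75e-06) and lower in LTP1pro (-1.75) and SMXL5pro nuclei (-1.59). Across the 17 libraries the profile most like that of IAA9 was that of IAA27 (Pearson r = 0.962 of log2 CPM plus 1), before IAA8 (0.954) and IAA13 (AT2G33310) (0.919), where the points share libraries, depth and tissue.

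IAA12 (AT1G04550, BODENLOS) is the partner of ARF5 in embryo patterning, and IAA13 is its nearest relative. IAA13 overlaps a gene on the opposite strand over 38.4% of its length and the strand was ignored in counting, so its values are uncertain. It had 287 and 198 CPM in VND7pro and 201, 216 and 183 in PXYpro nuclei. In the other tissues it had 128 and 145 CPM in NST3pro, 99.6, 86.0 and 82.4 in SCRpro, 97.4 and 57.2 in APLpro, 43.2, 64.2 and 37.0 in SMXL5pro and 24.7 and 26.1 in LTP1pro nuclei. IAA13 was higher in VND7pro (1.63 ± 0.19) and PXYpro nuclei (1.31 ± 0.17) and lower in LTP1pro (-2.17 ± 0.27) and SMXL5pro nuclei (-1.09 ± 0.20). None of these 4 calls held with all 21 libraries, with log2 fold changes of 1.07 in VND7pro (adjusted p = 0.0504), 1.30 in PXYpro (0.0156), -1.03 in LTP1pro (0.144) and -1.10 in SMXL5pro nuclei (0.0901), and after background subtraction that in SMXL5pro nuclei was -0.49 (adjusted p = 0.0979). IAA12 had 3.24 and 9.16 CPM in LTP1pro nuclei, against 55.7 and 45.3 CPM in NST3pro, 37.2, 56.9 and 42.2 in PXYpro, 42.01 and 35.4 in VND7pro, 39.6 and 29.4 in APLpro, 21.4, 12.7 and 43.8 in SCRpro and 22.8, 22.3 and 19.7 in SMXL5pro nuclei. It passed in the epidermis alone, where it was lower (log2 fold change -2.44 ± 0.46, adjusted p = 0.000797, and 0.0422 without LTP1pro replicate 20), and not in vessel elements, where ARF5 was highest. IAA26 (AT3G16500) had 43.3 and 19.5 CPM in LTP1pro nuclei, against 146 and 118 CPM in VND7pro, 118 and 99.2 in NST3pro, 83.6, 99.5 and 115 in PXYpro, 96.1 and 90.5 in APLpro, 78.3, 108 and 56.9 in SMXL5pro and 78.8, 48.3 and 50.3 in SCRpro nuclei, and was lower in the epidermis (-1.58 ± 0.31). IAA28 (AT5G25890), a repressor of lateral root formation, had 18.2 and 24.05 CPM in LTP1pro nuclei, against 83.6 and 99.0 CPM in VND7pro, 89.5, 32.9 and 92.7 in SCRpro, 51.1, 69.4 and 83.3 in PXYpro, 60.4 and 57.4 in NST3pro, 56.7, 52.5 and 35.6 in SMXL5pro and 32.4 and 38.0 in APLpro nuclei, and was also lower there (-1.49 ± 0.34). Neither epidermal call held with all 21 libraries. IAA4 (AT5G43700), an early auxin-induced gene, had 50.7 and 56.7 CPM in VND7pro nuclei, against 30.9 and 43.4 CPM in NST3pro, 37.0, 33.3 and 21.4 in PXYpro, 35.8 and 22.2 in APLpro, 8.82, 12.7 and 30.4 in SCRpro, 12.6, 16.9 and 12.1 in SMXL5pro and 8.90 and 14.03 in LTP1pro nuclei. IAA11 (AT4G28640) had 63.0 and 48.6 CPM in VND7pro nuclei, against 21.0, 21.4 and 43.4 CPM in PXYpro, 28.7 and 23.8 in APLpro, 19.6, 17.2 and 12.7 in SMXL5pro, 18.6 and 8.87 in LTP1pro, 15.2 and 10.8 in NST3pro and 4.41, 15.9 and 4.10 in SCRpro nuclei. Both were higher in vessel elements (1.33 ± 0.34 for IAA4 and 1.79 ± 0.38 for IAA11), without overlap with other tissues, and both calls were lost with all 21 libraries and with background subtraction.

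Of the 6 Aux/IAA genes without a degron, which are thought to be stable in auxin, IAA30 (AT3G62100) alone differed among tissues. It had 20.5 and 43.1 CPM in VND7pro and 25.9, 30.5 and 25.0 in PXYpro nuclei. It had 16.8 and 13.7 CPM in APLpro, 12.9 and 9.45 in LTP1pro, 9.07, 8.78 and 10.14 in SMXL5pro, 6.60 and 1.93 in NST3pro and 5.67, 2.12 and 2.05 in SCRpro nuclei elsewhere. IAA30 was higher in VND7pro (1.79 ± 0.43) and PXYpro nuclei (1.53 ± 0.38), and both calls were lost with RLE normalization, all 21 libraries or background subtraction. The log2 fold changes were 1.70 and 1.53 with all 21 libraries (adjusted p = 0.0105 and 0.0266) and 1.82 and 1.79 after background subtraction (adjusted p = 0.278 and 0.241). The 11 Aux/IAA genes that did not pass had tissue means between 0.868 and 35.8 CPM. IAA31 (AT3G17600), IAA34 (AT1G15050) and IAA5 (AT1G15580) fell below the level expected of a pseudogene of their length in 12, 11 and 10 of the 17 libraries, and were close to the limit of these data. IAA3 (AT1G04240), IAA10 (AT1G04100) and IAA32 (AT2G01200) share 41.5%, 35.6% and 38.8% of their length with a gene on the opposite strand and are uncertain for this reason. IAA17 (AT1G04250, AXR3), the neighbour of IAA3 and one of the most studied repressors, averaged 9.31 to 21.4 CPM with an adjusted p of 0.658. IAA29 (AT4G32280) averaged 23.7 ± 6.35 CPM in VND7pro nuclei (SD, n = 2) and at most 12.8 CPM in the other tissues (adjusted p = 0.0758). Tissue means of IAA15 (AT1G80390), IAA20 (AT2G46990) and IAA33 (AT5G57420) lay at 0.868 to 9.91, 3.43 to 19.1 and 2.25 to 8.66 CPM, with adjusted p of 0.502, 0.180 and 0.853.

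Compared tissue by tissue, members rose on balance in vessel elements and PXYpro nuclei and fell in SMXL5pro nuclei and the epidermis. Each tissue was set against the mean of the other 6, so these contrasts share libraries and are not independent. In fibers 6 members were higher and 2 lower, against 12% of all genes called (8.76% higher and 3.29% lower). In vessel elements 14 were higher and 1 lower, against 12.4% of all genes (10.3% higher and 2.05% lower). The median log2 fold change of the 44 members in vessel elements was 0.59 and that of all genes -0.08, and in fibers 0.27 and -0.16. In PXYpro nuclei 12 members were higher and 0 lower (8.1% of all genes called, 7.38% higher and 0.723% lower), with medians of 0.43 for members and 0.10 for all genes. In SMXL5pro nuclei 13 members were lower and 0 higher (13.5% of all genes called, 11.4% lower and 2.13% higher), with medians of -0.35 for members and 0.36 for all genes. In APLpro nuclei 5 were lower and 0 higher (3.96% of all genes called, 2.96% lower and 1% higher), with medians of -0.19 and 0.31. In the starch sheath 5 were higher and 4 lower (7.95% of all genes called, 6.36% higher and 1.59% lower), and the member median of -0.05 was that of all genes, -0.04. In the epidermis 11 were lower and 5 higher (9.23% of all genes called, 6.12% lower and 3.11% higher), with medians of -0.41 and 0.33. Under RLE normalization, 27.8% of all calls in SMXL5pro nuclei were higher instead of 15.8%, and 47.4% instead of 33.7% in the epidermis, while members split into 1 higher and 10 lower in SMXL5pro nuclei and into 5 higher and 8 lower in the epidermis. Counts in tissues with 2 libraries depended on single libraries. In fibers 3 calls were made without NST3pro replicate 3, where ARF3, ARF8, IAA2, IAA8 and IAA14 no longer passed (adjusted p = 0.0127 to 0.129). In vessel elements 7 were made without VND7pro replicate 5, where ARF8, ARF11, IAA4, IAA8, IAA9, IAA11, IAA16 and IAA30 no longer passed (adjusted p = 0.0107 to 0.212). In differentiated phloem 3 were made without APLpro replicate 13 and 1, that of IAA14, without replicate 14. In the epidermis 7 were made without LTP1pro replicate 20, where ARF1, ARF4, IAA2, IAA6, IAA7, IAA12, IAA18, IAA19 and IAA28 no longer passed (adjusted p = 0.0149 to 0.0988), and 7 without replicate 21. In LTP1pro replicate 19, which the study left out, ARF19 was at 836 CPM, IAA2 at 1345, IAA7 at 373, IAA6 at 127 and IAA19 at 142 CPM in the scaling over 21 libraries, and its pseudogene share was 1.33%. Each of the 11 members called lower in the epidermis was also higher in replicate 19 than in replicates 20 and 21. IAA13 had 106 CPM against 25.1 and 26.4, and IAA9 164 against 73.1 and 89.5. The markers CER6 (1708 against 599 and 679) and FDH (377 against 98.6 and 118) were highest in replicate 19 as well. The 11 lower calls rest on the libraries with less of these markers and a higher pseudogene share.

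PXYpro and SMXL5pro nuclei, sorted from the proximal and distal cambium sides of the stem cell domain, were compared directly. Of the 44 members, 13 were higher in PXYpro than in SMXL5pro nuclei and 0 were lower (adjusted p at 0.01 and absolute log2 fold change above 1), against 14.4% of all genes called (12.4% higher and 2.03% lower). The median log2 fold change was 0.86 for members and -0.22 for all genes. Among all genes, 85.9% of the calls were higher in PXYpro nuclei, and 75.6% under RLE normalization, where 12 members were higher and 0 lower. The largest difference was that of IAA19 (3.26 ± 0.43, adjusted p = 5.28e-06), followed by IAA27 (2.42 ± 0.22), ARF19 (2.22 ± 0.22), IAA8 (2.12 ± 0.27), IAA9 (2.08 ± 0.22), IAA13 (2.06 ± 0.24) and IAA18 (1.74 ± 0.25). These 7 calls remained in every alternative and whichever library was left out. IAA1 (2.02), IAA7 (2.00), IAA2 (1.85), ARF2 (1.60), ARF3 (1.44) and ARF1 (1.15) completed the list, each lost under at least 1 alternative. ARF4, at 279 ± 18.9 CPM in PXYpro and 187 ± 38.1 CPM in SMXL5pro nuclei (SD, n = 3 each), was not among them (log2 fold change 0.58 ± 0.24). Within the SMXL5pro line the median log2 fold change of the sort was -0.13 for members. IAA27 had 67.4, 69.8 and 44.04 CPM in GFP-negative nuclei of that line. Those of the NST3pro and APLpro lines had 221, 156 and 173 and 340, 262 and 221 CPM, scaled by line. IAA18 was not low there (65.5, 39.3 and 48.7 CPM, against 39.0, 51.9 and 35.6 and 41.8, 36.9 and 33.1). Whether tissue or line underlies the calls lower in SMXL5pro nuclei was not tested. Both cambium domains together differed from the other 5 tissues in 4 members (5.19% of all genes called, 1.14% higher and 4.05% lower), with ARF4 higher and ARF19 (-0.70 ± 0.14), IAA2 (-1.32 ± 0.15) and IAA7 (-1.69 ± 0.16) lower. With all 21 libraries ARF4 alone remained. The domains differed in ARF19, which had 235, 239 and 213 CPM in PXYpro and 51.9, 51.5 and 44.4 CPM in SMXL5pro nuclei. Against the mean of the other 6 tissues, ARF19 was called higher in PXYpro and lower in SMXL5pro nuclei. IAA2 and IAA7 were also higher in PXYpro than in SMXL5pro nuclei, as listed above.

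**Figure D3:**
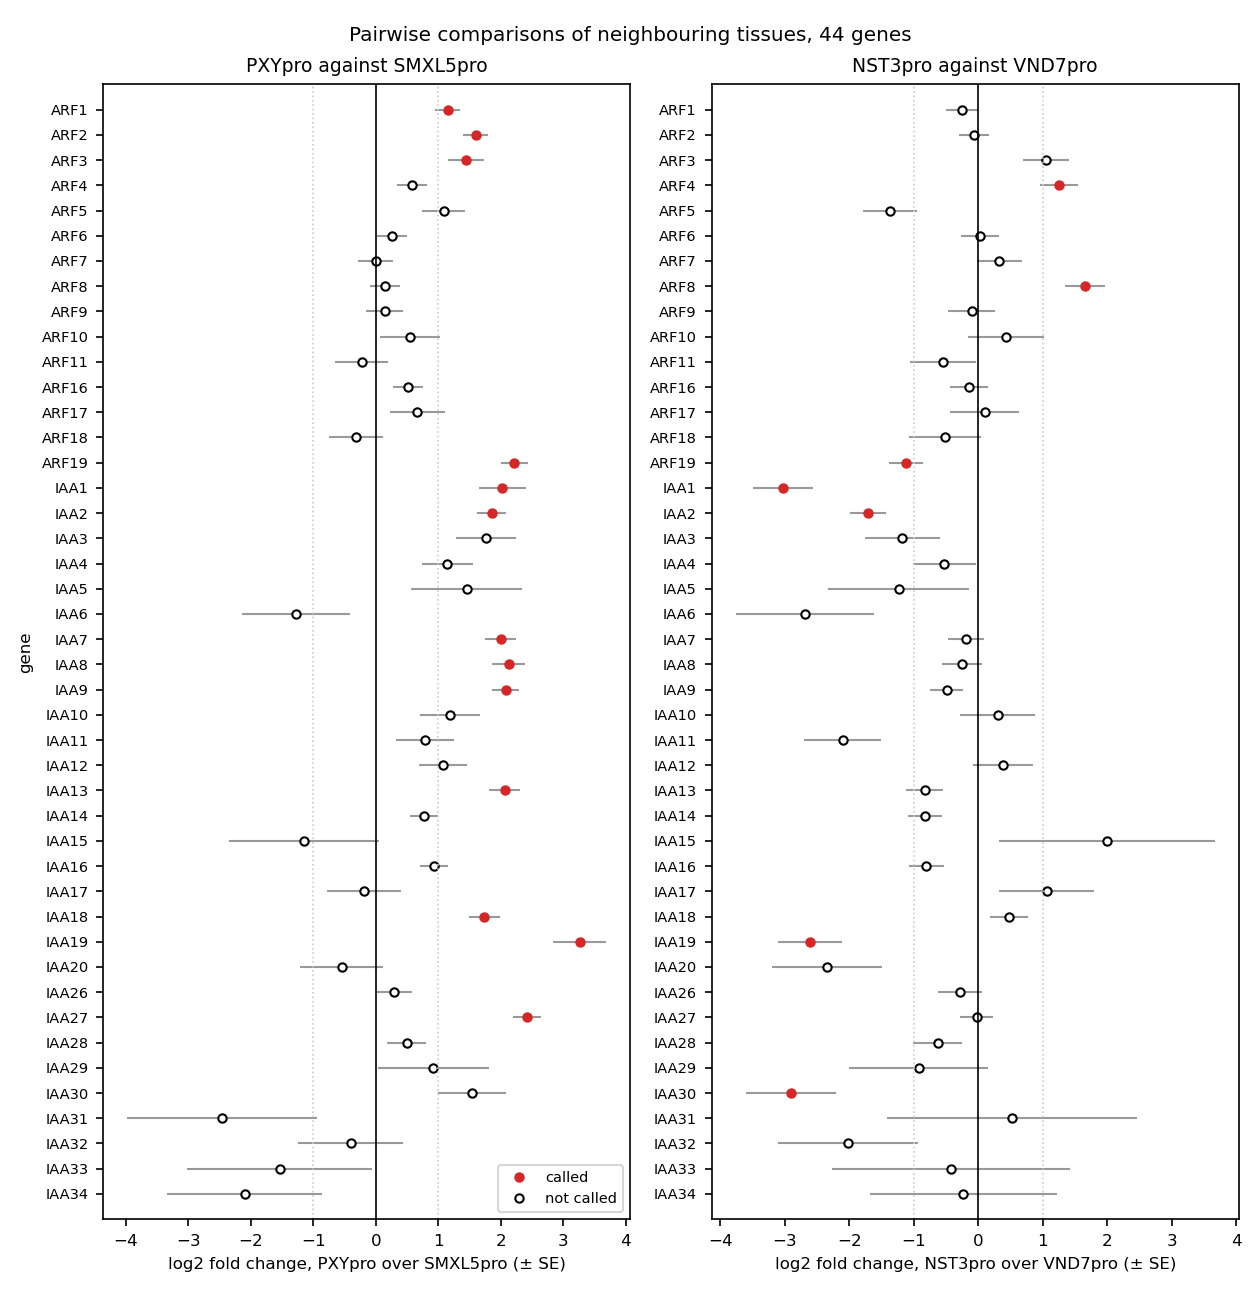
Log2 fold changes with SE of the 44 genes, PXYpro over SMXL5pro nuclei on the left and NST3pro over VND7pro nuclei on the right, with called genes filled and dotted lines at an absolute value of 1. All 13 called genes on the left lie above 1, and on the right 2 lie above 1 and 5 below -1.

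Fibers and vessel elements, both of which build lignified secondary walls, were compared next. Of the 44 members, 2 were higher in fibers and 5 higher in vessel elements, against 6.41% of all genes called (2.43% higher and 3.98% lower in fibers). ARF8 (1.66 ± 0.31) and ARF4 (1.25 ± 0.29) were higher in fibers, and IAA1 (-3.03 ± 0.47, adjusted p = 0.000164), IAA30 (-2.90 ± 0.70), IAA19 (-2.61 ± 0.50), IAA2 (-1.71 ± 0.29) and ARF19 (-1.12 ± 0.26) were lower in fibers. The median log2 fold change was -0.35 for members and -0.06 for all genes. ARF5 differed by -1.37 ± 0.42 (adjusted p = 0.0332) and was not called. IAA1 held in every alternative and without any 1 library. With all 21 libraries the calls of ARF8 and IAA1 remained. There were 3 calls without NST3pro replicate 3 or VND7pro replicate 4, and 4 without SMXL5pro replicate 10 or VND7pro replicate 5.

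Sorting GFP-positive from GFP-negative nuclei within a line gave no call among the members. The NST3pro line had 0 of 43 members tested (IAA31 being too low), the SMXL5pro line 0 of 44 and the APLpro line 0 of 44 at an adjusted p of 0.05 (edgeR), and 0%, 0.0066% and 0.0994% of all genes passed in these lines. At an unadjusted p under 0.05 there were 2, 4 and 5 members, against 5.91%, 6.75% and 9.5% of all genes. Libraries of both populations did not overlap for 7, 7 and 10 members, and for 9.53%, 13.6% and 17.7% of all genes. In the NST3pro line, ARF11 had 54.9, 36.6 and 24.9 CPM in GFP-positive nuclei, against 10.4, 6.77 and 13.1 CPM in GFP-negative nuclei (log2 fold change 1.90 ± 0.69, adjusted p = 0.813). IAA14 had 135, 95.9 and 145 CPM in GFP-positive nuclei, against 85.9, 33.9 and 55.6 CPM in GFP-negative nuclei in that line (log2 fold change 1.09 ± 0.60, adjusted p = 0.834), where GFP-negative replicate 47 was the shallowest library of all. In the APLpro line, IAA7 had 63.8, 47.2 and 15.8 CPM in GFP-positive nuclei, against 208, 134 and 90.4 CPM in GFP-negative nuclei (log2 fold change -1.77 ± 0.50, adjusted p = 0.406). The populations did not overlap for any of these, but no adjusted p came near the threshold. IAA2, the most abundant Aux/IAA transcript, had 146, 113 and 45.3 CPM in GFP-positive nuclei, against 320.0, 285 and 138 CPM in GFP-negative nuclei in the APLpro line (log2 fold change -1.29 ± 0.52, adjusted p = 0.507) and 124, 126 and 71.6 CPM in GFP-positive nuclei, against 141, 164 and 166 CPM in GFP-negative nuclei in the SMXL5pro line (-0.55 ± 0.24, adjusted p = 0.698). IAA27 had 91.7, 87.2 and 79.4 CPM in GFP-positive nuclei, against 67.4, 69.8 and 44.04 CPM in GFP-negative nuclei in the SMXL5pro line (0.51 ± 0.24, adjusted p = 0.738). Differences in the effect of the sort between lines, tested in 1 fit of 18 libraries, were called for 0 members in each of 3 pairs of lines (0.00313%, 0.436% and 0.00627% of all genes), with 3, 8 and 1 members at an unadjusted p under 0.05. DESeq2 within each line called 0 members as well, and when each line was tested in the fit of 18 libraries, ARF11 in the NST3pro line passed (adjusted p = 0.0499).

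**Figure D4:**
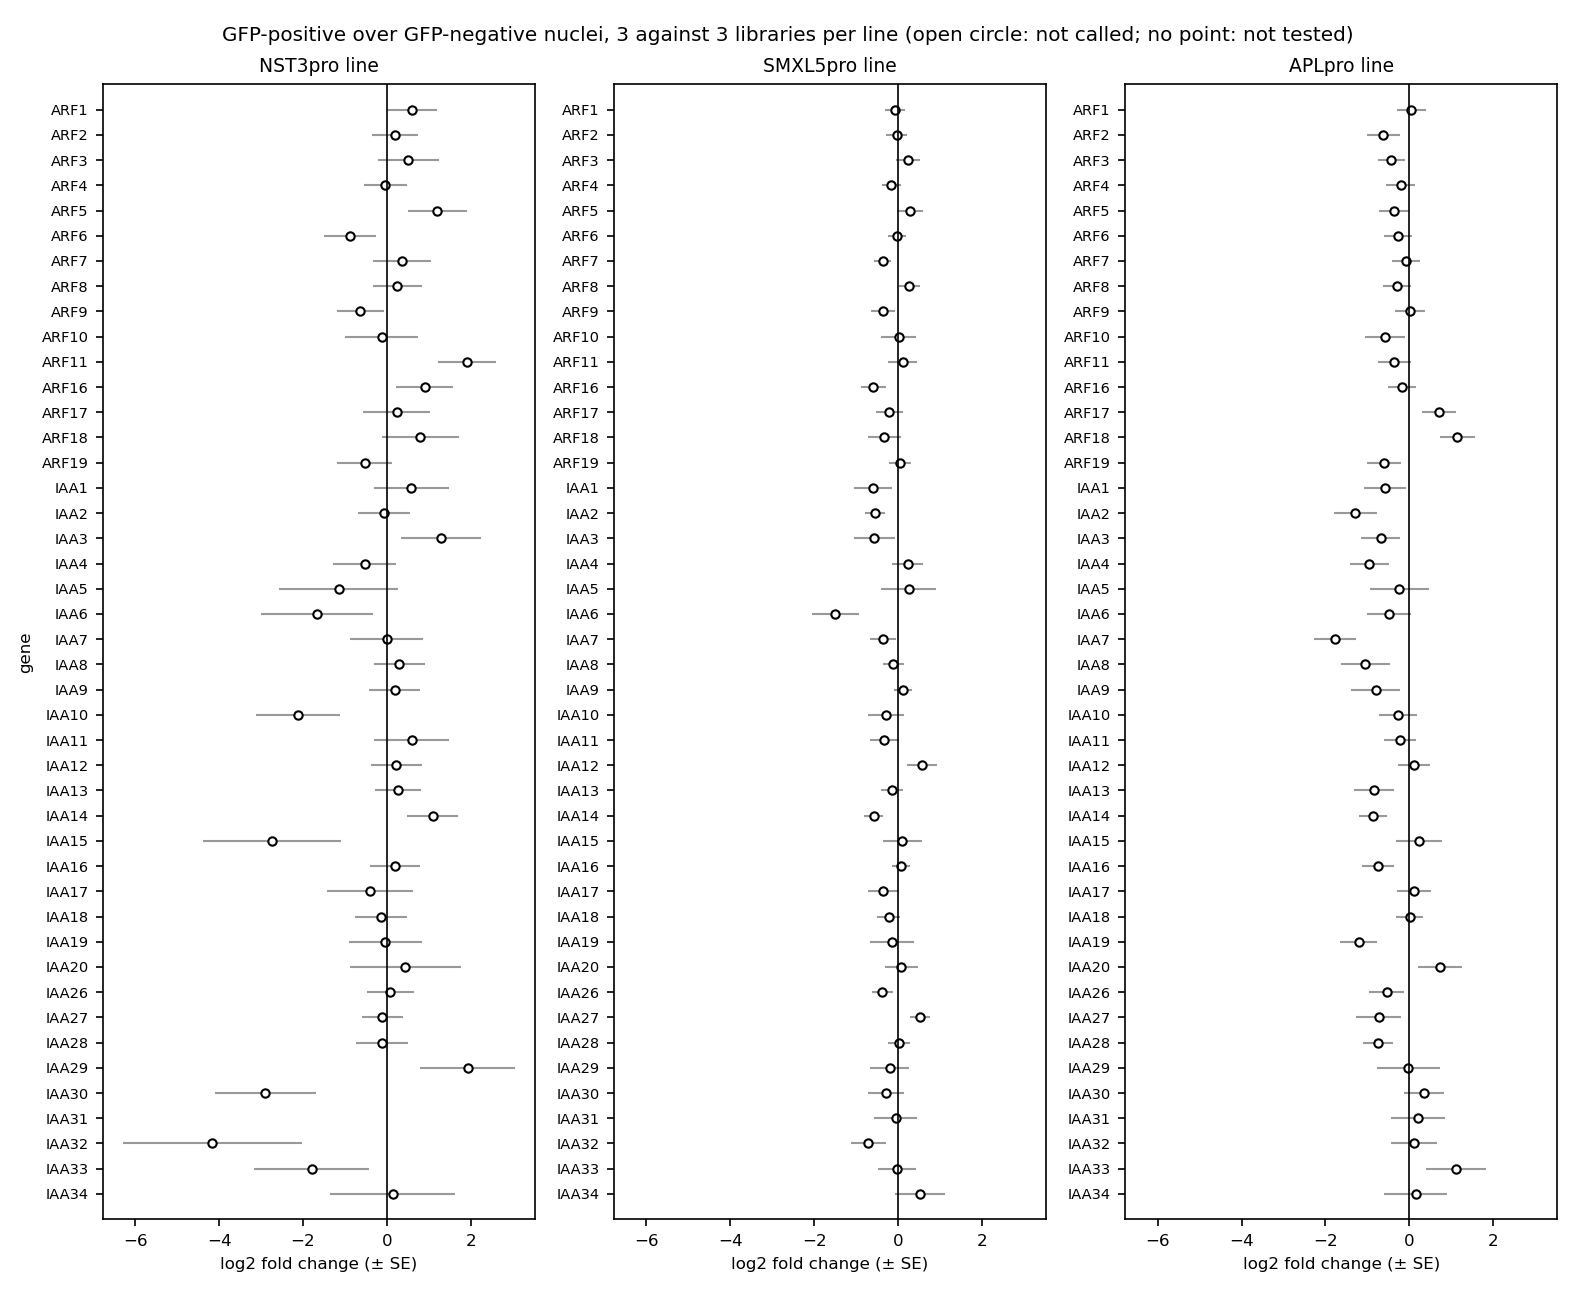
Log2 fold changes with SE of the 44 genes between GFP-positive and GFP-negative nuclei of the NST3pro, SMXL5pro and APLpro lines. No gene is called, and IAA7 in the APLpro line lies at -1.77.

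The other genes of the pathway were taken from lists of receptors, corepressors, auxin-conjugating enzymes, ARF targets and further ARFs. Their counts stand beside the 26.1% of all genes tested that differed among tissues. Tissue counts and contrasts of these lists are given for the 17 libraries alone. The corepressors, conjugating enzymes and further ARFs did not exceed that share. Of 6 receptors, 3 differed among tissues. AFB4, which with AFB5 binds the synthetic auxin picloram, had 721, 735 and 677 CPM in PXYpro and 22.8, 26.2 and 19.1 CPM in SMXL5pro nuclei, with 869 and 738 CPM in VND7pro, 412 and 299 in NST3pro, 302, 185 and 265 in SCRpro, 205 and 206 in LTP1pro and 195 and 154 in APLpro nuclei. Its SMXL5pro libraries were far below those of the other 6 tissues, and the contrast of PXYpro with SMXL5pro nuclei was 4.97 ± 0.24 (adjusted p = 1.74e-11). Within the SMXL5pro line, AFB4 had 35.6, 40.2 and 30.6 CPM in GFP-positive and 31.7, 52.1 and 45.8 CPM in GFP-negative nuclei. GFP-negative nuclei had 255, 467 and 187 CPM in the NST3pro line and 313, 361 and 157 CPM in the APLpro line, scaled by line. Whether tissue or line underlies the low AFB4 level was not tested. AFB5 had 173 and 193 CPM in NST3pro nuclei, against 146, 125 and 143 CPM in PXYpro, 122 and 97.7 in VND7pro, 60.5, 102 and 103 in SCRpro, 32.5, 36.8 and 36.0 in SMXL5pro, 32.4 and 37.8 in LTP1pro and 39.0 and 29.6 in APLpro nuclei, and was higher in fibers (1.56 ± 0.18). AFB1 had 62.8 and 70.4 CPM in VND7pro nuclei, against 45.3 and 34.9 CPM in NST3pro, 24.5, 27.1 and 47.8 in PXYpro, 18.6 and 20.3 in LTP1pro, 18.4 and 12.1 in APLpro, 12.4, 16.4 and 12.6 in SMXL5pro and 5.67, 17.5 and 15.7 in SCRpro nuclei, and was higher in vessel elements (1.71 ± 0.30). TIR1 and AFB3 passed nowhere, and AFB2 was higher in fibers (1.18 ± 0.24) without passing the test among 7 tissues. In the scaling over 21 libraries, NST3pro replicate 2, left out by the study, had 21.3 CPM of AFB5 and 26.0 of AFB2. The kept fiber libraries had 185 and 201 CPM of AFB5 and 112 and 105 of AFB2. VND7pro replicate 6, also left out, had 22.6 CPM of AFB1, against 58.8 and 69.8 in the kept libraries of vessel elements. Of 5 corepressors TPL alone differed, with 279.6, 257 and 234 CPM in PXYpro nuclei, against 206 and 224 CPM in NST3pro, 155 and 166 in VND7pro, 110.3, 115 and 117 in SCRpro, 95.9, 98.3 and 101 in SMXL5pro, 97.4 and 98.6 in APLpro and 82.9 and 64.4 in LTP1pro nuclei, and it was higher in PXYpro nuclei (1.11 ± 0.12). Of 8 GH3 enzymes, which conjugate auxin to amino acids, GH3.9 alone differed among tissues, with means of 60.7 ± 34.5 CPM in APLpro and 19.4 ± 8.54 CPM in SCRpro nuclei (SD, n = 2 and 3). Of 11 genes known as ARF targets or partners, 5 differed among tissues. ATHB8, a class III homeodomain gene of the procambium that ARF5 activates, had 237 and 252 CPM in VND7pro nuclei, against 134, 134 and 115 CPM in PXYpro, 129.7 and 58.6 in NST3pro, 59.2, 68.4 and 52.0 in SMXL5pro, 53.8 and 37.5 in LTP1pro, 56.1, 36.6 and 23.3 in SCRpro and 48.6 and 27.4 in APLpro nuclei, and was higher in vessel elements (2.02 ± 0.24) and PXYpro nuclei (0.93 ± 0.22). TMO5, another ARF5 target, was higher in vessel elements (1.86 ± 0.35) and PXYpro nuclei (1.70 ± 0.30). WOX4 (2.07 ± 0.22), a cambium regulator that also served as a PXYpro marker, TMO6 (1.48 ± 0.27) and LBD4 (1.24 ± 0.27) were higher in PXYpro nuclei. TAS3, the source of the small RNAs against ARF2, ARF3 and ARF4, differed among tissues (adjusted p = 0.00501) with 32.4 ± 0.594 CPM in fibers and 6.69 ± 2.71 CPM in SMXL5pro nuclei, but no contrast with 1 tissue passed. In the scaling over 21 libraries, NST3pro replicate 2 had 10.8 CPM of TAS3, against 35.1 and 33.4 in the kept fiber libraries. Of 8 further ARFs, near-identical copies whose reads can be lost when unique hits alone are kept, ARF13 and ARF22 differed. In both libraries of fibers together, ARF13 had 0 reads and ARF22 had 1 read, so no fold change is given.

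Likeness of profile was described as Pearson's r of log2 CPM plus 1 over the 17 libraries. ARF19 was most like IAA2 (0.864), IAA7 (0.778) and IAA18 (0.743) among the other members. ARF5 was most like IAA1 (0.807), ARF1 (0.801) and IAA14 (0.746). ARF2 was most like IAA13 (0.865) and ARF3 most like ARF4 (0.724). IAA2 and IAA7, which lie close together on chromosome 3, gave 0.930. These values describe libraries of 7 tissues that share depth and background, and no test was made of them.

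**Figure D5:**
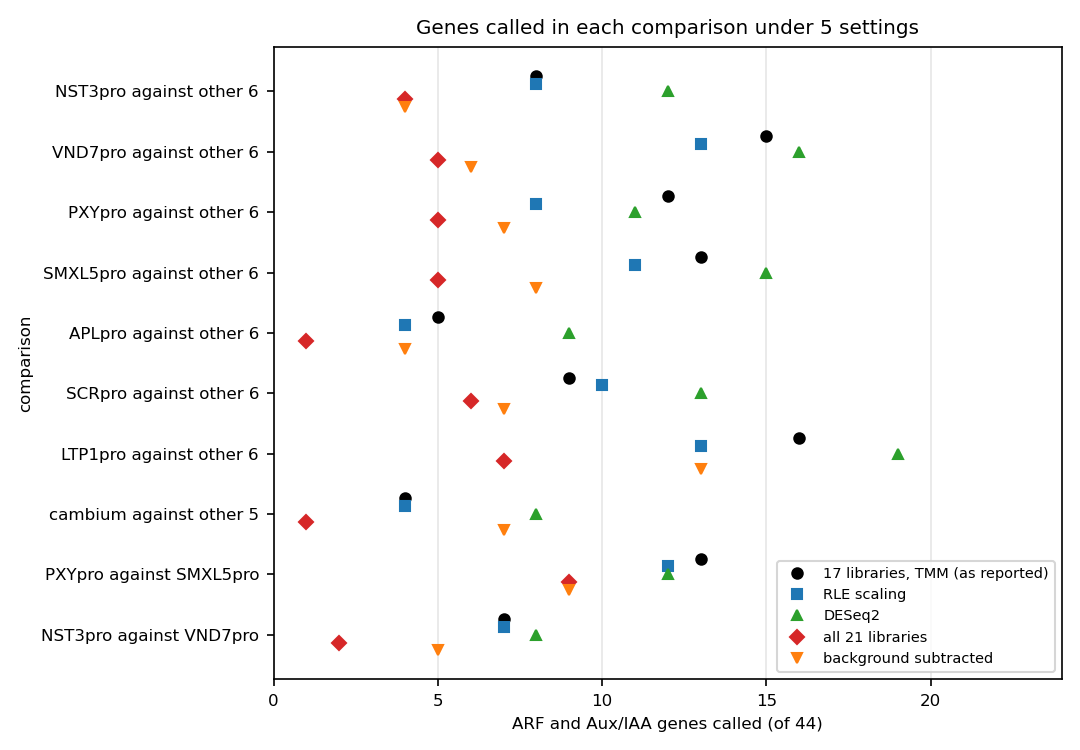
Number of the 44 genes called in each tissue comparison with 17 libraries and TMM, with RLE scaling, with DESeq2, with all 21 libraries and after background subtraction. Of 130 calls over all tissue comparisons, the test among tissues included, 54 held in these settings and without a filter on low counts.

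Over the test among 7 tissues and the 10 contrasts, the members received 130 calls. In each of 5 alternative settings 54 held (RLE scaling, DESeq2, no filter on low counts, all 21 libraries and background subtraction), and 47 held also whichever of the 17 libraries was left out. All 21 libraries lost 66 of the calls and background subtraction lost 50. The calls that held throughout included all 6 of ARF19, IAA2, IAA7, IAA14, IAA16 and IAA18 in the starch sheath, ARF1, IAA1 and IAA14 in vessel elements, ARF1, ARF4 and ARF19 in fibers, ARF2, ARF3, ARF4 and IAA27 in PXYpro nuclei, ARF19, IAA2, IAA7, IAA19 and IAA27 in SMXL5pro nuclei, IAA14 in APLpro nuclei and ARF19 in the epidermis.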

How the data were processed

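The authors trimmed single-end reads of 50 bases with Cutadapt 2.3, aligned them with STAR 2.5.0a to TAIR10, kept unique hits, and deposited raw read counts per Araport11 gene (summarizeOverlaps, Union mode, whole gene bodies, strand ignored). Libraries were made with SMART-seq2 from 15000 nuclei, 10800 for LTP1pro replicate 21, without molecular identifiers, and cDNA preparations had been chosen by the contrast of the reporter in a PCR. Of the 44 members, 43 hold no 50-base window that recurs in the genome. Libraries held 725545 to 18335693 reads, and the 9 libraries whose counts occur in a pair of tables were used once.

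In R 4.3.3, counts entered edgeR 4.0.16 for two-sided quasi-likelihood F tests (TMM, filterByExpr, Benjamini-Hochberg over all genes tested), in 1 fit of 7 tissues, in 1 fit per line, and in 1 fit of 18 libraries for differences between lines. Thresholds were an adjusted p of 0.01 among tissues, joined in pairwise comparisons by an absolute log2 fold change over 1, and 0.05 within lines. The tests were checked on simulated data. DESeq2 1.42.0, RLE scaling, no filter, all 21 libraries, subtraction of reads per base on 3903 pseudogenes, and leaving out each library were alternatives. Per-library levels are given for members past any test or among the 5 highest per kilobase of their family. Gene models and sequences are those of RefSeq on TAIR10.1, which matched 37039 of 37051 identifiers. The members and lists were chosen with earlier results of these data known. Plots used matplotlib 3.10.9 (Python 3.11.15).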

Additional observations from a re-analysis of the deposited data

Results flagged for a closer look

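The estimated effect of the sort on IAA14 had opposite signs in the NST3pro and APLpro lines, and was called in neither. Populations that did not overlap, as for IAA14, were found for 9.53% of all genes in the NST3pro and 17.7% in the APLpro line. In the NST3pro line the log2 fold change of GFP-positive over GFP-negative nuclei was 1.09, with every GFP-positive library above every GFP-negative one, and in the APLpro line it was -0.86, with every GFP-positive library below. The difference between lines was tested in 1 fit of 18 libraries and did not pass (difference 1.91 ± 0.54, SE, adjusted p = 0.103, edgeR). It passed in 1 of the fits that left out a library, without NST3pro GFP-negative replicate 46 (difference 2.33, adjusted p = 0.0238).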

How the results depend on the processing

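Among the calls of the members no alternative turned a direction. With all 21 libraries 4 members were called in fibers (8 with 17), 5 in vessel elements (15), 5 in PXYpro nuclei (12), 5 in SMXL5pro nuclei (13), 1 in APLpro nuclei (5), 7 in the epidermis (16), 1 in both cambium domains (4) and 2 between fibers and vessel elements (7). After background subtraction 5 ARF genes differed among tissues (10 without it), and 4 members were called in fibers, 6 in vessel elements, 7 in PXYpro nuclei, 8 in SMXL5pro nuclei and 7 in both cambium domains. DESeq2 gave 9 in APLpro nuclei and 8 in both cambium domains, and the fit of 18 libraries gave 1 in the NST3pro line (0 in its own fit). RLE scaling moved the median log2 fold change of all genes by -0.34 between PXYpro and SMXL5pro nuclei, 0.22 in SMXL5pro, 0.18 in LTP1pro, -0.18 in PXYpro and -0.17 in both NST3pro and VND7pro nuclei. Leaving out 1 library gave 7 to 10 ARF and 14 to 19 Aux/IAA genes among tissues, 3 to 9 calls in fibers, 7 to 17 in vessel elements, 8 to 13 in PXYpro, 9 to 14 in SMXL5pro, 1 to 6 in APLpro, 6 to 11 in SCRpro and 7 to 18 in LTP1pro nuclei, 4 to 6 in both cambium domains, 12 to 15 between PXYpro and SMXL5pro nuclei, 3 to 8 between fibers and vessel elements, 0 within lines and 0 to 1 for differences between lines. No paired analysis was possible because the labels number the libraries serially and groups share no replicate number, so that no label says which GFP-positive and GFP-negative libraries came from 1 preparation. With 2 libraries in each of 4 tissues, and a background of pseudogene reads that differed between tissues, low members such as IAA5, IAA31 and IAA34 could not be resolved at this depth.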
